A study of Mus musculus with 12 samples.

Results

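Replication-dependent histone genes encode the core histones H2A, H2B, H3 and H4 and the linker histone H1, which package newly made DNA. They lie in clusters and are transcribed in S phase from the histone locus body, which NPAT organises, and their mRNAs end in a stem-loop bound by SLBP instead of a poly(A) tail. Their mRNA therefore follows DNA replication in dividing marrow cells, whereas many replacement variants are also made outside S phase. Some members are exceptions: Hist1h1c and Hist2h2be are known from human cells to give polyadenylated mRNA in differentiated cells too, and a few members are made in the testis.

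The members were the transcript clusters whose single platform symbol begins with a histone cluster prefix, or carries the updated name of such a gene. There were 31 such clusters and 30 symbols of 30702 in the series, since Hist1h4b had 2 clusters and the brighter was kept. The rule itself reads symbols and, for a symbol with several clusters, the mean level. Of the 30 members, 28 passed the filter on low values, which kept clusters brighter than their array's median on 3 or more of 12 arrays: 4 H1, 10 H2A, 9 H2B, 3 H3 and 2 H4 genes. The other 2, the testis linker histones Hist1h1t and H1f7, lay below that median on every array and were not tested. H1f7 enters by the letters of its name alone. The members with a test lay on chromosomes 13 (21 genes), 3 (6) and 11 (1).

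A further 36 clusters were annotated only to several histone genes at once, up to 13 for an H4 cluster, because the coding sequences are nearly identical. They name no single gene and are described apart. Cross-hybridisation between near-identical copies was not tested for the members either, so that a value labelled with 1 symbol may hold signal of its paralogs.

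RNA had been extracted from monocytes and macrophages that were separated magnetically from the bone marrow of 12 mice. All mice, with and without MEC1, were Rag2-/- gamma c-/- on a BALB/c background, and so without lymphocytes of their own. MEC1, 1 established line of human leukemic B cells (chronic lymphocytic leukemia), had been given intravenously. The groups were MEC1 at 21 d and no MEC1 at 21 d, both aged 11 weeks, and MEC1 at 31 d and no MEC1 at 31 d, both aged 13 weeks, with 3 mice each. The 2 days stand for an early and a late stage of the leukemia, and the mice without MEC1 were matched for age. Values are log2 intensities and a change is a difference of group means in log2 units, MEC1 minus no MEC1.

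The proximal promoters of the 4 tested linker histone genes are shown first, since all 4 fell at 31 d. Of the 4 H2B genes found with the octamer motif only Hist1h2bk fell. The promoters of 2 of them, chosen after their values were seen, are shown as well. Each is the 150 bases up to the start of transcription, 5′ to 3′ on the gene's own strand, from RefSeq on build GRCm38.p6. Capitals mark the H1 box AAACACA, the CCAAT box, the octamer ATTTGCAT and the TATA box TATAAA, searched on both strands, so that ATTGG is CCAAT on the other strand. The windows were chr13:23738657-23738806 for Hist1h1c, chr13:23554882-23555031 for Hist1h1d, chr13:23763518-23763667 for Hist1h1a, chr13:22035671-22035820 for Hist1h2bk and chr13:21721894-21722043 for Hist1h2bm, all on the plus strand, and chr13:21780626-21780775 on the minus strand for Hist1h1b.
Hist1h1c: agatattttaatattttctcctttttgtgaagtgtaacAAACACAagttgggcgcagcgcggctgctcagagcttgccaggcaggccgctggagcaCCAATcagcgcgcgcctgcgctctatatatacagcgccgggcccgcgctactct
Hist1h1d: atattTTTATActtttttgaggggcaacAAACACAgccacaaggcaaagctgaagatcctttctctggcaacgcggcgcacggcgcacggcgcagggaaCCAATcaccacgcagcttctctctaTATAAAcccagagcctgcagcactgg
Hist1h1b: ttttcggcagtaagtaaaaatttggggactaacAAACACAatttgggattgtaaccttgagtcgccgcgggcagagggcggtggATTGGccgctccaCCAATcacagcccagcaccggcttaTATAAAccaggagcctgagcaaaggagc
Hist1h1a: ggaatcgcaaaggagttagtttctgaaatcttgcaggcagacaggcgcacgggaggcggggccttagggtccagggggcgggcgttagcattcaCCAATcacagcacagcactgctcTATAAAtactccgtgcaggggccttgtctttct
Hist1h2bk: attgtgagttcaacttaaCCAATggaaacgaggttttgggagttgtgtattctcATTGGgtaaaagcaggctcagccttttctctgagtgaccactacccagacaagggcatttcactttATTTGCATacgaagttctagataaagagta
Hist1h2bm: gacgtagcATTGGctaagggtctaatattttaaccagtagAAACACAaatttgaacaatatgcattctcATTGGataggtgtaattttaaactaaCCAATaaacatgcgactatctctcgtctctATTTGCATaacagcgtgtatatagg

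Of the 30 members, 26 had a promoter in the RefSeq table, and H2ac14, H2bc21, H2bu1-ps and H3c7 did not. The H1 box is a motif known from linker histone promoters. It was found in 4 of 6 H1 promoters and 2 of 7 H2B promoters, and in 3.53% of all 32851 promoters of the same length. The octamer, the binding motif of OCT1 and known from H2B promoters, was found in 4 of 7 H2B promoters and 1 of 9 H2A promoters, and in 0.998% of all. A CCAAT box was found in 24 of 26 members (24.5% of all) and the TATA letters in 8 of 26 (7.57% of all). Hist1h1a, whose level fell like that of the other H1 genes, held no H1 box in this window. A match describes letters and not a bound factor.

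At 31 d, 13 of the 28 members fell with MEC1 and 1 rose. Against this stand 43.8% of all 37240 tested clusters called at 31 d, 21.1% falling and 22.6% rising, by limma with p adjusted over all of them (threshold 0.05). The median change was -0.58 over the members and 0.04 over all tested clusters, and 23 of 28 members had a negative change. Over the 19490 named genes with a test, taken once each, the median was -0.10 and 5661 fell. The falls covered every tested H1 gene (4 of 4, median -2.15) and every tested H3 gene (3 of 3, median -1.12). They covered 4 of 10 H2A genes (median -0.42), 2 of 9 H2B genes (median -0.31) and 0 of 2 H4 genes (median -0.46). An unadjusted p under 0.05 was found for 1 of the 2 H4 genes, beside 20029 of all 37240 tested clusters. Classes differ in level and in size, and their difference was not tested. Among the clusters shared by several H3 genes, given below, only 2 of 7 fell. By position, 11 of 21 members on chromosome 13 fell and 2 of 6 on chromosome 3.

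These are bulk samples, in which fewer cells of a type and less RNA per cell cannot be told apart. The array as a whole also moved with MEC1. Spiked hybridisation controls lay between 12.15 and 13.18 with MEC1 at 31 d, against 10.47 to 10.70 without. At 21 d they lay between 11.80 and 12.04 with MEC1, against 10.71 to 10.87 without, and 92.1% of their variance was between groups. Array medians were 4.13 to 4.40 with MEC1 at 31 d, against 3.80 to 3.81 without. With that control level as a covariate, no member passed at either day. Of all tested clusters 0.0107% rose at 21 d, 0.0188% rose at 31 d and 0 fell at either day. Group and control level cannot be told apart.

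**Figure D1:**
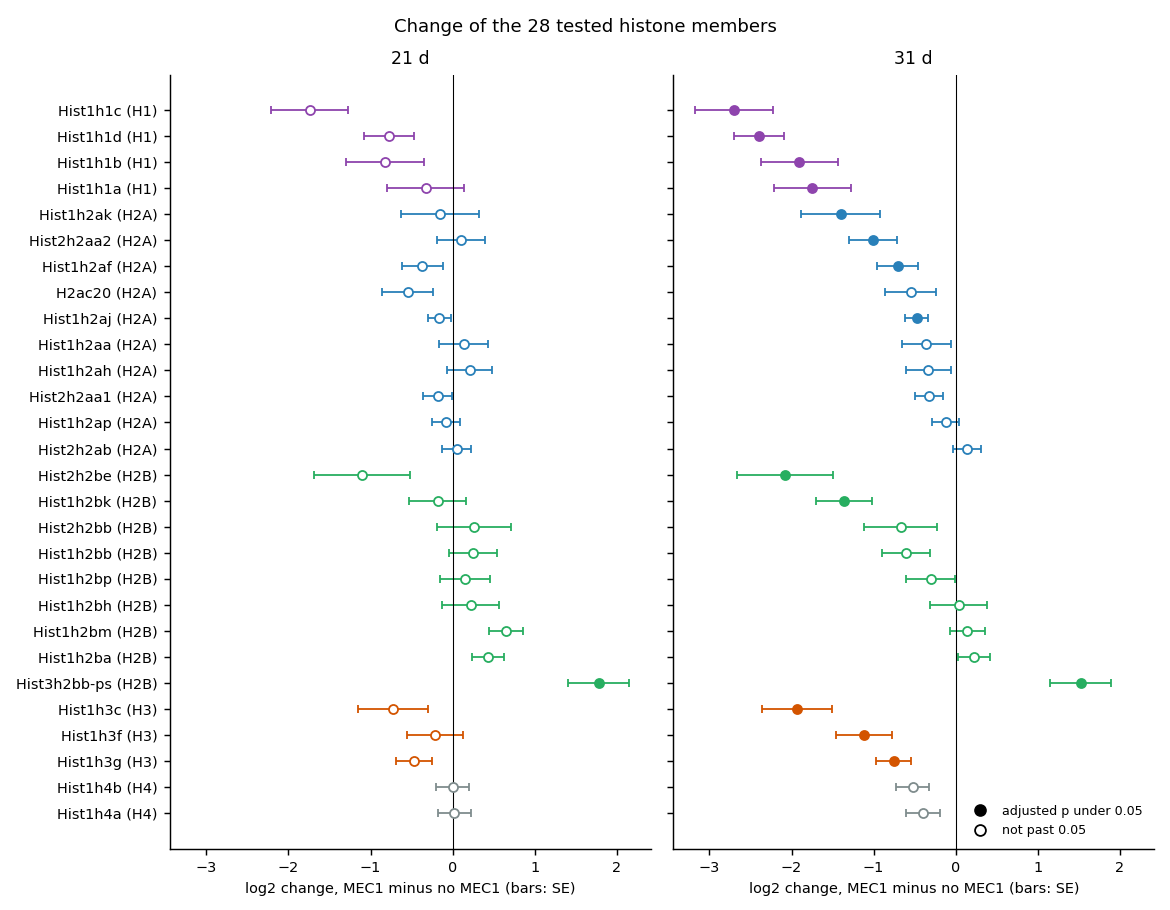
Change of the 28 tested members at 21 d (left) and 31 d (right), as log2 intensity with MEC1 minus without, with standard errors. Filled points passed the adjusted threshold. At 31 d all 4 H1 and all 3 H3 points are filled and below 0, while at 21 d Hist3h2bb-ps is the 1 filled point.

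Linker histones had the lowest class median at 31 d, though Hist2h2be and Hist1h3c had lower changes than Hist1h1b and Hist1h1a. Linker histones sit on the DNA between nucleosomes and compact chromatin. Hist1h1c, which encodes H1.2, stood at 12.81, 12.68 and 11.62 in MEC1 mice at 31 d, against 14.54, 15.17 and 15.51 in mice without MEC1. Every MEC1 mouse was below every mouse without, a change of -2.70 (SE 0.472, adjusted p = 0.00203), which is 6.51-fold lower. At 21 d its values were 13.41, 14.96 and 14.90 with MEC1, against 15.57, 16.58 and 16.35 without. The groups again did not overlap, but the change of -1.74 did not pass (adjusted p = 0.063).

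Hist1h1d, which encodes H1.3, stood at 5.39, 4.83 and 5.28 in MEC1 mice at 31 d, against 7.28, 7.30 and 8.11 without. It fell by 2.40 (SE 0.304, adjusted p = 0.000559). At 21 d it stood at 5.80, 5.49 and 5.93 with MEC1, against 6.19, 6.22 and 7.14 without, with no overlap and a change of -0.78 (adjusted p = 0.16). Its MEC1 mice averaged 5.17 at 31 d and 5.74 at 21 d. The mice without MEC1 were higher at 31 d than at 21 d by 1.05, which did not pass (adjusted p = 0.402).

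Hist1h1b, which encodes H1.5, stood at 8.35, 8.37 and 7.55 in MEC1 mice at 31 d, against 10.04, 9.73 and 10.21 without. The groups were far apart, and the change of -1.90 passed (SE 0.474, adjusted p = 0.0101). At 21 d the groups overlapped: 8.17, 8.15 and 9.05 with MEC1, against 8.11, 10.27 and 9.47 without. Hist1h1a, which encodes H1.1, stood at 3.63, 4.29 and 3.64 in MEC1 mice at 31 d, against 5.80, 5.37 and 5.64 without, a change of -1.75 (SE 0.468, adjusted p = 0.0137). In 2 of the 3 MEC1 mice it lay below the array's own median, so that its change is measured from near the background. Under quantile normalization Hist1h1b did not pass (-1.25, adjusted p = 0.0639), while Hist1h1c, Hist1h1d and Hist1h1a did.

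The 3 measured H3 genes encode the replicative histone H3. Hist1h3c stood at 9.58, 9.95 and 9.20 in MEC1 mice at 31 d, against 11.55, 10.91 and 12.06 without. The lowest mouse without MEC1 was above the highest with it, and Hist1h3c fell by 1.93 (SE 0.426, adjusted p = 0.00592). Hist1h3f stood at 6.25, 6.26 and 6.77 with MEC1, against 7.89, 7.41 and 7.34 without, and fell by 1.12 (adjusted p = 0.0227). Hist1h3g stood at 5.26, 5.24 and 5.52 with MEC1, against 6.30, 6.01 and 5.98 without, and fell by 0.76 (adjusted p = 0.0172). None of the 3 passed at 21 d, where their changes were -0.73, -0.21 and -0.47. Hist1h3f and Hist1h3g did not pass under quantile normalization at 31 d (adjusted p = 0.257 and 0.0543).

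Among the H2A genes, 4 of 10 fell at 31 d. Hist1h2ak stood at 10.00, 10.18 and 9.29 in MEC1 mice, against 11.23, 11.24 and 11.21 without. The mice without MEC1 were nearly equal, and the change of -1.40 had an adjusted p of 0.0357. Hist2h2aa2, named after its values were seen so that every call is covered, stood at 5.04, 4.38 and 5.16 with MEC1, against 6.48, 5.53 and 5.59 without, and fell by 1.01 (adjusted p = 0.0191). Both H2A members with the brightest clusters fell by smaller amounts. The highest value of any cluster was 19.93, and whether the signal saturates at such levels was not tested. Hist1h2af stood at 17.04, 17.28 and 16.79 with MEC1, against 17.75, 17.74 and 17.74 without, a change of -0.71 (adjusted p = 0.04).

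Hist1h2aj, which RefSeq lists as a pseudogene, stood at 18.71, 18.81 and 18.74 with MEC1, against 19.24, 19.19 and 19.26 without, a change of -0.48 (adjusted p = 0.0223). Which of its near-identical relatives give the signal of Hist1h2aj was not tested. Under quantile normalization Hist1h2ak, Hist1h2af and Hist1h2aj did not pass (adjusted p = 0.149, 0.314 and 0.136). Without moderation Hist1h2ak and Hist1h2af did not pass (0.0696 and 0.06), and with trend and robust Hist1h2af and Hist1h2aj did not (0.0629 and 0.073). The H2A gene H2ac20 stood at 9.99, 10.14 and 8.99 with MEC1, against 10.32, 10.14 and 10.30 without. Its change of -0.55 did not pass (adjusted p = 0.166) and replicate 3 with MEC1 was the lowest. The 5 other H2A genes had changes between -0.36 and 0.14.

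The H2B genes went both ways. Hist2h2be stood at 7.39, 6.53 and 7.25 in MEC1 mice at 31 d, against 9.28, 8.98 and 9.16 without, and fell by 2.08 (SE 0.584, adjusted p = 0.0166). At 21 d it stood at 5.88, 7.10 and 8.56 with MEC1, the widest spread of any member in a group, against 7.52, 8.20 and 9.12 without. Hist1h2bk, named after its values were seen, stood at 6.58, 6.50 and 5.85 with MEC1 at 31 d, against 7.69, 8.10 and 7.23 without, and fell by 1.36 (SE 0.344, adjusted p = 0.0107). Under quantile normalization neither passed (adjusted p = 0.0847 for Hist2h2be and 0.0514 for Hist1h2bk).

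Hist3h2bb-ps was the 1 member that rose. RefSeq lists it as a transcribed pseudogene of H2B, and it lies on chromosome 11 away from the large clusters. It stood at 9.56, 10.49 and 10.92 in MEC1 mice at 31 d, against 8.70, 8.81 and 8.89 without, a rise of 1.52 (SE 0.375, adjusted p = 0.00955). At 21 d it stood at 10.15, 10.04 and 10.61 with MEC1, against 7.79, 8.52 and 9.15 without, a rise of 1.78 or 3.43-fold (adjusted p = 0.031). The groups did not overlap at either day. The rise at 31 d passed in all 12 fits that left out 1 array, and that at 21 d in 7 of 12.

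Hist1h2ba, a testis H2B, stood at 8.95, 9.02 and 9.03 with MEC1 at 31 d, against 8.86, 8.69 and 8.78 without, with no overlap, but the change of 0.22 did not pass (adjusted p = 0.355). Its direction depended on the scaling, with -0.21 when centred on the array median and a rise of 0.95 under quantile normalization (adjusted p = 0.0201). Hist2h2bb, whose groups overlapped narrowly, stood at 9.17, 9.43 and 8.60 with MEC1, against 9.42, 10.07 and 9.72 without, a change of -0.67 (adjusted p = 0.235). Hist1h2bk and Hist1h2ah, an H2A gene, run in opposite directions, and their promoter windows share 123 bases. Hist1h2ah, chosen after its values were seen, stood at 4.80, 5.36 and 5.61 with MEC1 at 31 d, against 5.78, 5.73 and 5.26 without. Its change of -0.33 did not pass (adjusted p = 0.333), and the difference from Hist1h2bk was not tested. Hist1h2bm, also chosen after its values were seen, holds both an octamer and an H1 box and had a change of 0.14 at 31 d (adjusted p = 0.591).

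Both H4 members lay low. Hist1h4b stood at 4.40, 4.72 and 4.54 in MEC1 mice at 31 d, against 4.93, 5.16 and 5.14 without, and Hist1h4a at 4.38, 4.57 and 4.15, against 4.82, 4.87 and 4.60. The MEC1 mice were lower without overlap in both, but the changes of -0.52 and -0.40 did not pass (adjusted p = 0.0546 and 0.134). Both passed when the values were centred on the array median (0.0108 and 0.0258).

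**Figure D2:**
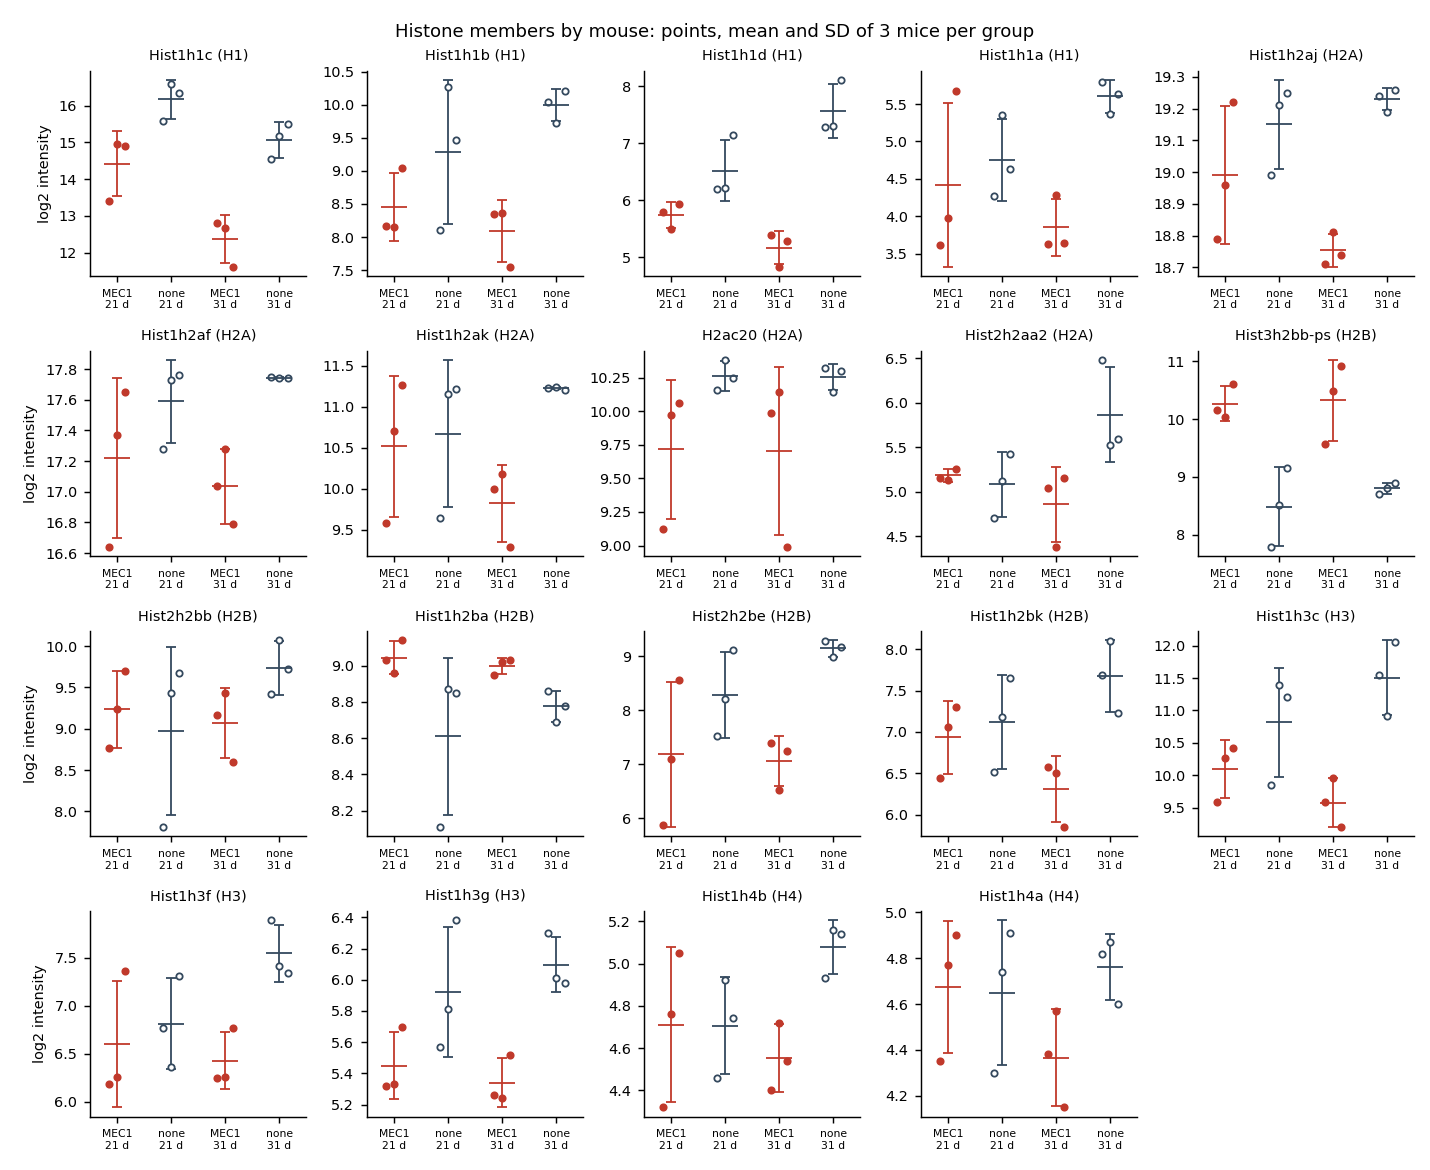
Log2 intensity of 19 members whose values are given in the text, 1 point per mouse, with mean and SD of the 3 mice of a group; filled points are MEC1 and open points no MEC1, and each panel has its own scale. For Hist1h1c, Hist1h1d and Hist1h3c the MEC1 mice at 31 d lie below all mice without MEC1 of that day, and for Hist3h2bb-ps they lie above.

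Of the 36 clusters shared by several histone genes, 33 had a negative change at 31 d. At that day 18 of 36 fell and 0 rose by limma, beside 21.1% of all tested clusters falling and 22.6% rising. An unadjusted p under 0.05 was found for 22 of 36, beside 20029 of all 37240 tested clusters. The changes of the 36 had a median of -0.69, from -3.08 to 0.43. By class, 7 of 10 H4 clusters fell (median -1.01), 5 of 9 H2A clusters (median -0.60) and 3 of 9 H2B clusters (median -0.70). Of the H3 clusters 2 of 7 fell (median -0.31, from -2.11 to 0.43), whereas all 3 H3 members fell. The 1 cluster annotated to both H2A and H3 fell as well. The lowest, a change of -3.08, was an H4 cluster annotated to 13 genes. Some of these clusters may read the same transcripts as each other or as the members, so they are no second sample of the genes. At 21 d none passed by limma, beside 4.34% of all tested clusters, and the median was -0.26. At that day 1 of 36 had an unadjusted p under 0.05, beside 8716 of all 37240 tested clusters.

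At 21 d, 1 of 28 members rose, Hist3h2bb-ps, and 0 fell by limma, beside 4.34% of all tested clusters called, 1.83% rising and 2.51% falling. An unadjusted p under 0.05 was found for 5 of 28 members, beside 8716 of all 37240 tested clusters, and the members' median change was -0.12. With array weights 9 members fell at 21 d, beside 20.1% of all clusters falling. The MEC1 mice lay below the mice without MEC1 with no overlap for 3 members, Hist1h1c, Hist1h1d and H2ac20, beside 13.7% of all clusters. They lay above for 3, Hist3h2bb-ps, Hist1h2ba and Hist1h2bm, beside 14.9%. At 31 d they lay below for 20 of 28, beside 28.4% of all clusters, and above for 2, Hist3h2bb-ps and Hist1h2ba, beside 31.2%.

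Whether the MEC1 effect differed between the days was tested directly as the effect at 31 d minus that at 21 d. By limma 0 of 28 members passed, beside 0.00269% of all clusters. An unadjusted p under 0.05 was found for 3 of 28, beside 4793 of all 37240 clusters. The median of these differences was -0.52, and 26 of 28 were negative. Hist1h1d had the lowest, -1.62 (SE 0.43, adjusted p = 0.325). With array weights it passed, beside 2.25% of all clusters falling. The falls at 31 d were thus not shown to differ from the changes at 21 d. Among mice without MEC1, 0 of 28 members passed between 31 d and 21 d by limma, beside 0.00806% of all clusters. Here 4 of 28 had an unadjusted p under 0.05, beside 2436 of all 37240 clusters. The members' median change between the days was 0.34, and Hist1h1c (-1.09, adjusted p = 0.741) and H2ac20 (-0.01) were the 2 members below 0.

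Single mice stood apart at 21 d. Replicate 3 of the MEC1 mice was the highest of its group in 25 of 28 members, compared with 34.3% of all clusters, and replicate 1 the lowest in 20 of 28, compared with 36.3%. Replicate 1 of the mice without MEC1 was the lowest of its group in 26 of 28 members, compared with 35.9% of all clusters. The mean over the members was 7.52, 7.88 and 8.31 in MEC1 mice, against 7.53, 8.20 and 8.36 in mice without MEC1, so the groups overlapped nearly fully. At 31 d it was 7.64, 7.71 and 7.52 in MEC1 mice, against 8.43, 8.34 and 8.43 without. Members thus moved together from mouse to mouse within the groups of 21 d. Without MEC1 21 d replicate 3, 2 of 28 members fell at 21 d, Hist1h1c and Hist2h2be, beside 4.27% of all clusters falling. Without no MEC1 21 d replicate 1 the count of falls was 0 and Hist3h2bb-ps no longer passed, beside 1.68% of all clusters falling and 1.12% rising.

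How far the falls follow the level was described by setting each member against all tested clusters of the same range of control level at 31 d. That control mean is also subtracted in the change, so level and change are linked in part by construction. Dim clusters could also pass the filter through MEC1 arrays alone. Clusters of middle level had lower changes than dim or bright ones: the median was 0.14 for control levels from 4 to 6, -0.59 from 6 to 8, -0.93 from 8 to 10, -1.06 from 10 to 12, -0.75 from 14 to 16 and -0.34 from 16 to 20. Of the 28 members, 20 lay below the median of their range. From 4 to 6 this held for 8 of 9 members (median -0.33), from 6 to 8 for 5 of 8 (median -0.68) and from 8 to 10 for 2 of 5 (median -0.67). Falls that passed covered 2 of 9 members from 4 to 6 (7.10% of all clusters), 4 of 8 from 6 to 8 (41.7%), 2 of 5 from 8 to 10 (56.6%) and 2 of 3 from 10 to 12 (56.6%). They also covered the 1 member from 14 to 16 (36.9%) and the 2 from 16 to 20 (20.4%). From 6 to 12 these shares lie near those of all clusters of that level. Hist1h1c, the 1 member from 14 to 16, had -2.70, below the median of that range. From 8 to 10 the members' median was above that of all clusters of their level.

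**Figure D3:**
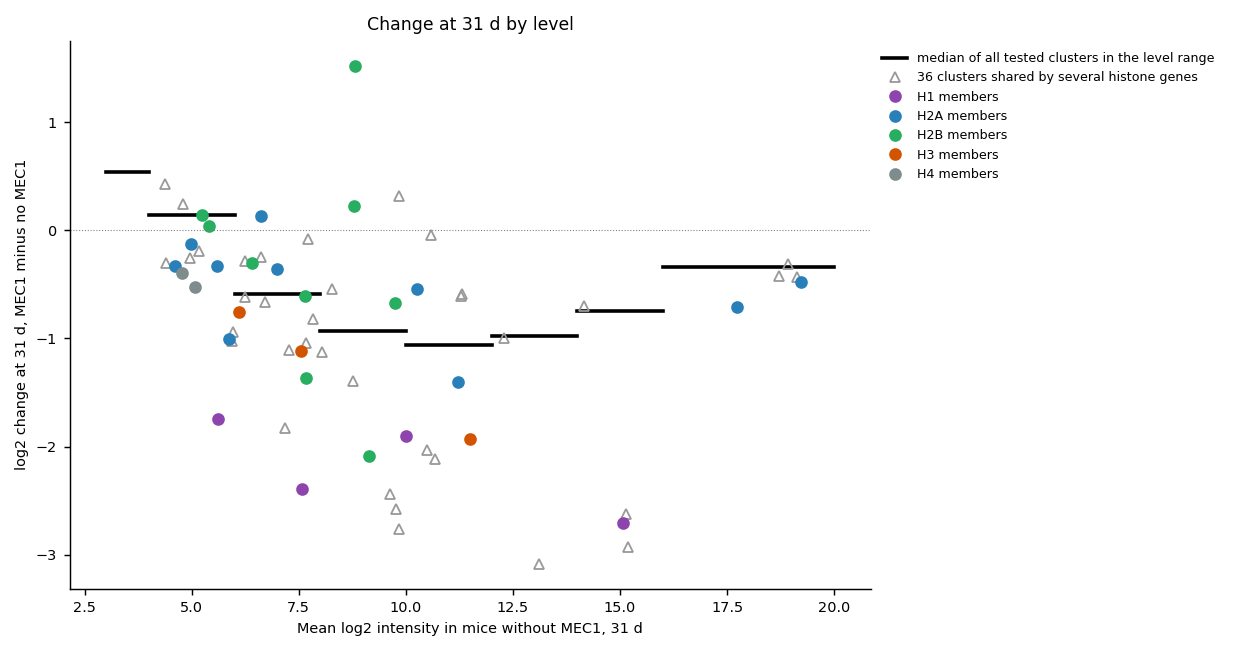
Change at 31 d, in log2 units with MEC1 minus without, against the mean log2 intensity in mice without MEC1. Points are members by class, triangles the 36 shared clusters, and black lines the median of all tested clusters in each level range, the first range being open to the left; the H1 points lie below the lines.

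Machinery that makes and handles histone mRNA was lower too. Of the genes of the histone locus body and of histone mRNA end processing, 12 of 15 with a test fell at 31 d (median -1.44). At 21 d 0 fell by limma (median -0.43), and 2 had an unadjusted p under 0.05, beside 8716 of all 37240 clusters. Of all tested clusters 21.1% fell at 31 d and 2.51% at 21 d. Control levels from 8 to 12, where 56.6% of all clusters fell at 31 d, held 12 of the 15 genes. Npat, which drives histone transcription, stood at 7.99, 8.25 and 6.53 in MEC1 mice at 31 d, against 9.72, 10.23 and 9.92 without, and fell by 2.37 (adjusted p = 0.00154). Slbp, the stem-loop binding protein, stood at 8.14, 7.58 and 6.94 with MEC1, against 9.29, 9.77 and 9.53 without, and fell by 1.98 (adjusted p = 0.00324). The endonuclease gene Cpsf3, the scaffold gene Sympk, the cap-complex gene Ncbp1 and its partner Srrt fell as well, with changes of -1.09, -1.54, -1.82 and -1.88. Cpsf3 did not pass under quantile normalization (-0.54, adjusted p = 0.0871).

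Chaperones, which carry histones to and from DNA, fell in 15 of 18 genes at 31 d (median -1.14) and in 1 of 18 at 21 d (median -0.43), Chaf1a (-1.03, adjusted p = 0.037), named because it is that 1 call. Of all tested clusters 21.1% fell at 31 d and 2.51% at 21 d. Of the list, 9 of the 18 genes had control levels from 8 to 10, where 56.6% fell at 31 d. Asf1b, which hands over H3 and H4 in replication, stood at 11.86, 11.68 and 9.94 in MEC1 mice at 31 d, against 13.43, 13.47 and 13.51 without, and fell by 2.31 (adjusted p = 0.00541). Its paralog Asf1a (-1.52), the H3.3 chaperone gene Atrx (-1.20), Rbbp4 (-0.85) and Nap1l1, a chaperone of H2A and H2B (-0.88), fell as well. Under quantile normalization Asf1a (adjusted p = 0.0529), Nap1l1 (0.0647) and Rbbp4 (0.413) did not pass. Nap1l1 also did not with trend and robust (0.0562), without moderation (0.0685) or with the replicate block (0.0616), nor Rbbp4 with the 6 arrays of the day (0.0584). Atrx did not pass under quantile normalization without MEC1 31 d replicate 3 (-0.44, adjusted p = 0.0782). Hat1, which acetylates new H4, had a change of -0.71 that did not pass (adjusted p = 0.0901).

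Replacement variants, which need no replication to enter chromatin, fell in 5 of 6 genes at 31 d (median -1.25) and in 0 of 6 at 21 d by limma. Of all tested clusters 21.1% and 2.51% fell. At 21 d 0 of 6 had an unadjusted p under 0.05, beside 8716 of all 37240 clusters. Whether the mRNA of these variants followed the cell cycle here was not tested. H2ax, marked at DNA breaks, stood at 12.03, 11.93 and 9.82 with MEC1 at 31 d, against 13.89, 13.48 and 13.87 without, and fell by 2.49 (adjusted p = 0.00826). Cenpa, the H3 of centromeres, (-1.91), H2aj (-1.46), Macroh2a1 (-1.04) and H2az2 (-0.65) fell as well. H2az1 stood at 17.70, 17.59 and 17.23 with MEC1, against 17.87, 17.93 and 17.91 without, and its change of -0.40 did not pass (adjusted p = 0.0622). H2az2 and Macroh2a1 did not pass under quantile normalization (adjusted p = 0.3 and 0.13). Under quantile normalization without MEC1 31 d replicate 3, H2aj did not pass (-0.72, adjusted p = 0.0892).

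S phase genes were lower at 31 d in 24 of 26 tested (median -1.99) and in 0 of 26 at 21 d by limma (median -0.65). Beside this stand 21.1% and 2.51% of all tested clusters falling, and 56.6% at 31 d for control levels from 8 to 12, which held 15 of the 26 genes. At 21 d 8 of 26 had an unadjusted p under 0.05, beside 8716 of all 37240 clusters. Slbp belongs to this list as well, and without it 23 of 25 fell at 31 d. Mcm2, a subunit of the replicative helicase, stood at 10.44, 9.97 and 8.82 in MEC1 mice at 31 d, against 12.90, 13.43 and 13.37 without, and fell by 3.49 (adjusted p = 0.00131). Pcna, the sliding clamp (-2.32), and Rrm2, a subunit of ribonucleotide reductase (-1.71), fell as well. The helicase genes Mcm5, Mcm3, Mcm4 and Mcm6 fell too, with changes of -2.64, -2.48, -2.46 and -2.18. Under quantile normalization without MEC1 31 d replicate 3, Rrm2 did not pass (-0.89, adjusted p = 0.122). That replicate was the lowest of its group for this list, with mean levels of 9.11, 8.75 and 8.05 in the MEC1 mice at 31 d. The lists of this and the preceding paragraphs were chosen with results of these data known, so their counts are descriptions.

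Markers of cell types, the separated monocytes and macrophages among them, also changed at 31 d. Most of these marker lists held falls, while the B cell list held rises. Their counts stand beside 21.1% of all tested clusters falling and 22.6% rising at 31 d, and 2.51% falling at 21 d. Erythroid markers fell in 10 of 10 genes at 31 d, with a mean level of 5.60, 5.18 and 6.09 in MEC1 mice, against 11.19, 11.73 and 11.59 without. At 21 d they fell in 5 of 10, with 6.66, 7.64 and 10.10 in MEC1 mice, against 10.19, 11.38 and 11.71 without. Replicate 3 of the MEC1 mice and replicate 1 of the mice without MEC1, which stood apart for the members at 21 d, were the highest and the lowest of their groups here as well. The same 2 mice were so for S phase genes: 9.24, 9.62 and 10.38 in MEC1 mice, against 9.82, 10.51 and 10.80 without.

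Progenitor markers fell in 6 of 8 genes at 31 d, with a mean level of 6.49, 6.07 and 5.87 with MEC1, against 8.10, 7.79 and 7.69 without. Neutrophil markers fell in 5 of 13, with 13.86, 13.70 and 11.56 with MEC1, against 14.23, 13.92 and 13.92 without, and replicate 3 with MEC1 was far below the rest. Of these 13 genes 6 had control levels from 16 to 20, where 20.4% of all clusters fell, and 4 from 12 to 16, where 48.0% (12 to 14) and 36.9% (14 to 16) fell. Monocyte and macrophage identity genes fell in 9 of 12 and rose in 1, Mertk, with 10.40, 10.60 and 9.25 with MEC1, against 11.24, 11.18 and 11.17 without. Of the 5 B cell genes with a test 4 rose. Control levels were up to 4 for 2 of these genes and from 4 to 6 for 3. In those ranges the median change of all clusters at 31 d was 0.54 and 0.14. The mean level over all 7 B cell clusters, 2 of them not tested, was 4.77 to 5.26 with MEC1, against 4.06 to 4.12 without. Erythroid precursors and progenitors divide, and the part of these cell types in the histone result was not tested. No array value is a true 0, so no marker can be called absent.

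**Figure D4:**
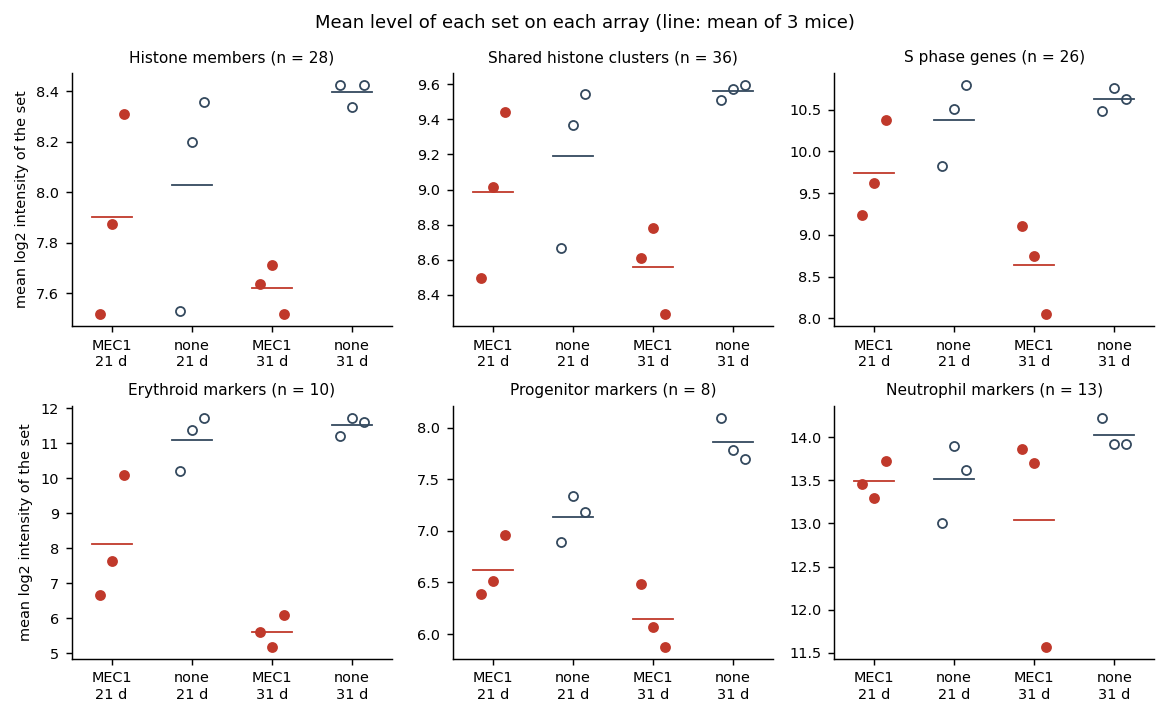
Mean log2 intensity of 6 sets on each of the 12 arrays, with lines at the mean of the 3 mice; filled points are MEC1 and open points no MEC1. The histone members, the shared histone clusters, the S phase genes and the erythroid and progenitor markers are all lower in the MEC1 mice at 31 d than in the mice without, and at 21 d replicate 3 with MEC1 lies highest in its group.

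The number of falls at 31 d depended on how arrays were scaled and on single mice. Quantile normalization gave 7 falls and 2 rises, beside 15.1% of all clusters falling and 13.5% rising, and 5 of the 13 falls passed: Hist1h1c, Hist1h1d, Hist1h1a, Hist1h3c and Hist2h2aa2. Centring on the array median gave 18 falls among 36.9% of all clusters falling and 7.48% rising. Without no MEC1 31 d replicate 1 the count was 7 (18.0% of all clusters), and without MEC1 31 d replicate 3 it was 10 (14.4%). Leaving out the 12 arrays in turn, 6 of the 13 falls passed every time: Hist1h1c, Hist1h1d, Hist1h1b, Hist1h1a, Hist1h3c and Hist1h2bk.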

How the data were processed

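The values were log2 intensities per transcript cluster of a mouse whole-transcriptome array, deposited by the authors for 12 arrays, 1 per mouse. RMA and Affymetrix Expression Console made them, per the submitters' processing notes, and versions are not given in the sources used here. Of 72688 features 6732 controls were left out. Of 65956 clusters 30604 had 1 platform symbol, 2146 several and 33206 none, and all 30 member symbols were found in the RefSeq table. Scanner files were not used here, and depth does not apply: for arrays, their number limits the precision.

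Groups followed the labels. limma 3.58.1 in R 4.3.3 estimated 4 group means for each of 37240 clusters, moderated by empirical Bayes, with two-sided p-values adjusted by Benjamini-Hochberg and a threshold of 0.05, and was tested on simulated data. The simulated clusters varied independently and few were changed, so the shift of whole arrays seen here was not covered. Named members were the 4 brightest of each class and the 4 largest rises and falls that passed without overlap. From the related lists, up to 6 of the highest mean level were named, with Slbp, Npat, Mcm2, Pcna and Rrm2. The members and lists were chosen with earlier results of these data known. Alternatives were other filters, normalizations, variance models, a block, a control covariate, a 1.5-fold minimum, and each array left out. Quantile normalization without MEC1 31 d replicate 3 was added after seeing the data.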

Additional observations from a re-analysis of the deposited data

How the results depend on the processing

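The 13 falls at 31 d became 7 with quantile normalization (15.1% of all clusters falling), 3 with quantile normalization without MEC1 31 d replicate 3 (9.09%), and 0 with the hybridisation-control covariate, which also left 0 rises. The 3 that passed without that replicate were Hist1h1c, Hist1h1d and Hist2h2aa2. Quantile normalization gave 2 rises at 31 d, beside 13.5% of all clusters rising. Leaving out 1 array gave 7 to 14 falls, beside 14.2% to 22.3% of all clusters falling, and a median of -0.70 to -0.49 over the members. The median of -0.58 was -0.54 with no filter, -0.64 with the 70th percentile filter, -0.44 with quantile normalization, -1.01 when centred on the array median, -0.45 with array weights, -0.41 with the covariate and -0.50 with quantile normalization without that replicate. At least 1.5-fold kept 12 falls.

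At 21 d the 1 rise was 2 with array weights, beside 22.7% of all clusters rising. It was 0 without moderation (0.773% of all clusters), with the covariate (0.0107%) or with the 6 arrays of the day (0.438%). When 1 array was left out it was 0 to 1 (0.328% to 3.47%). The count of 0 falls was 9 with array weights, beside 20.1% of all clusters falling. It was 1 with the 70th percentile filter (5.22% of all clusters), 1 with quantile normalization (1.23%) and 1 without that replicate as well (2.30%). When 1 array was left out it was 0 to 2 (0.475% to 4.27%). The difference between days had 1 fall with array weights, beside 2.25% of all clusters falling.

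Only under the covariate did called values turn: Hist1h2af (0.0901), Hist1h2ak (0.12), Hist3h2bb-ps (-0.58) and Hist1h2bk (0.21) among members, and Slbp (0.33), Npat (0.98), Pcna (1.48), Rrm2 (0.73), Cpsf3 (1.22), Srrt (0.20), Ncbp1 (0.13), Nap1l1 (1.00), Asf1b (1.48), Asf1a (0.55), Atrx (0.77), Rbbp4 (1.03), H2ax (1.64), H2aj (1.04), Cenpa (0.85), Mcm5 (0.14), Mcm3 (0.89), Mcm4 (1.02) and Mcm6 (0.46) among related genes, none of which passed. The cause was not tested. Of 88 gene values, 1849 of their alternatives kept direction and side of the threshold, 106 lost the call, 46 gained it and 86 moved without a call.

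Same-numbered mice had correlations of -0.36 to 0.42 in 18 pairs, over 0.1 in 4. Correlations of differently numbered mice are not given beside them, so a pairing by number was not tested. With the replicate number as a block 14 members fell at 31 d, beside 19.2% of all clusters. With that block 1 member rose at each day, beside 0.838% of all clusters at 21 d and 19.7% at 31 d. No member had values identical to another, so counting such clusters once changes nothing, and averaging the 2 clusters of Hist1h4b changed no count. Signal near the background limits Hist1h1a and the H4 genes. Hist2h2aa2 was dim as well, at 5.04, 4.38 and 5.16 with MEC1 at 31 d, where array medians were 4.13 to 4.40.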
